A study of Arabidopsis thaliana with 12 samples.

Results

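Lowering histone variant H3.3 in h2a.z plants, at 27 °C, went with lower transcript levels of jasmonate and ethylene defence genes and aliphatic glucosinolate genes. Some phosphate, iron and root genes were lower as well. Linker histone genes and some seed genes were higher, while abscisic acid, drought and cold genes went both ways. The comparison set 3 h3.3kd;h2a.z libraries, called the combined line or combined 1 to 3 below, against 3 h2a.z libraries, so 6 of the 12 libraries of the study. Genes entered it with a TPM (transcripts per 1000000) of 1 or more in at least 3 of these 6 libraries, which 19334 of the 23387 genes in the table did. All libraries came from whole Arabidopsis thaliana seedlings, aged 7 days, raised in short days at 21 °C and then kept at 27 °C for 12 h. Both groups carry h2a.z, and the combined line carries the H3.3 knockdown as well, which the titles call h3.3kd and the genotype field h3.3kd-1. The other genotypes are Col, the wild type, and h3.3kd alone. The sources used here do not give alleles, the construct behind the knockdown or the number of independent lines, and all 12 libraries were made at 27 °C.

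H3.3 replaces canonical H3 in nucleosomes of transcribed genes outside of DNA replication, and in plants it is enriched towards the 3′ part of gene bodies. H2A.Z replaces H2A, mostly in the first nucleosome after the start site and across the bodies of inducible genes, where it is known to hold many stress and defence genes in a responsive, low state; its eviction in warmth is linked to the growth response called thermomorphogenesis. The design asks what H3.3 does to expression at 27 °C in h2a.z plants. It also asks whether that differs in plants without the h2a.z change.

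The H3.3 genes were lower in the combined line, as the labels say, but HTA9, an H2A.Z gene, differed between the groups too. HTR4 (AT4G40030), HTR5 (AT4G40040) and HTR8 (AT5G10980) encode H3.3. HTR8 read 166, 156 and 182 TPM in the 3 h2a.z libraries and 8.56, 8.98 and 8.12 in the combined line, with no overlap (log2 change -4.14 ± 0.16, adjusted p = 8.4e-10; limma, as for every adjusted p below). HTR4 had means of 355 ± 50.1 and 54.7 ± 6.45 TPM (SD, n = 3; log2 change -2.67 ± 0.24, adjusted p = 3.8e-06), and HTR5 of 302 ± 15.4 and 63.7 ± 12.3 (log2 change -2.25 ± 0.17, adjusted p = 5.5e-07). These 3 genes encode near-identical proteins, so how reads were split between them is uncertain. Of the H2A.Z genes, HTA8 (AT2G38810) was near 0 in both groups, at 0.0202 and 0.0231 TPM on average, and was not tested. HTA11 (AT3G54560) stayed low in both, at 2.58 ± 0.869 and 4.13 ± 0.457 TPM (adjusted p = 0.15). HTA9 (AT1G52740) did change: it read 31.3, 34.4 and 30.5 TPM in h2a.z and 91.9, 77.1 and 92.7 in the combined line (log2 change 1.41 ± 0.22, adjusted p = 0.0003). Every combined library was above every h2a.z library, and all 6 were below every Col library (325, 211 and 228 TPM). Without the h2a.z change, H3.3 knockdown left HTA9 at 212 ± 69.8 TPM, and the difference between the H3.3 effects in the 2 backgrounds was called (1.71 ± 0.31, adjusted p = 0.0072). HTA9 reads were thus not at one level across the pair, and whether they come from a full transcript was not tested.

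In all, 1054 of the 19334 genes were called higher in the combined line (5.45%) and 3803 lower (19.7%), at an adjusted p under 0.05. Changes of 2-fold or more made up 277 of the rises and 2021 of the falls, and 4-fold or more 50 and 389. The libraries of the pair did not overlap for 15.7% of the tested genes on the higher side and 36.9% on the lower side, whether called or not. Leaving out h2a.z 2 or any single combined library left 628 to 692 rises. The 3 libraries of a group lay close together, with correlations across genes of 0.979 to 0.988 within groups and 0.926 to 0.933 between them. The split between rises and falls depends on the scaling. The median over all genes was -0.14 on the log2 scale as deposited, and rises made up 21.7% of the calls. Rescaling each library by its median ratio put the median at -0.015 and the share of rises at 37.9%, and quantile normalization put them at 0.058 and 50.8%. The same 6 libraries differed in how their TPM was spread: 19434 to 19492 genes reached 1 TPM in h2a.z and 18325 to 18408 in the combined line, and the 10 most abundant genes held 6.57% to 7.32% and 9.98% to 10.4% of the TPM. Of the genes tested, 597 had 1 TPM or more in every h2a.z library and in no combined library, against 72 the other way round, so the filter let in more genes through h2a.z. A gene that passed through 1 genotype alone had to differ between the groups, and its change is a description. Lists of genes are therefore described below beside the median of -0.14 and the called shares of 5.45% and 19.7%, and where a scaling turns a list's direction this is said. Log2 fold changes, in parentheses log2 changes, are on the log2(TPM + 1) scale, which understates the change of low genes, and are given ± standard error.

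**Figure D1:**
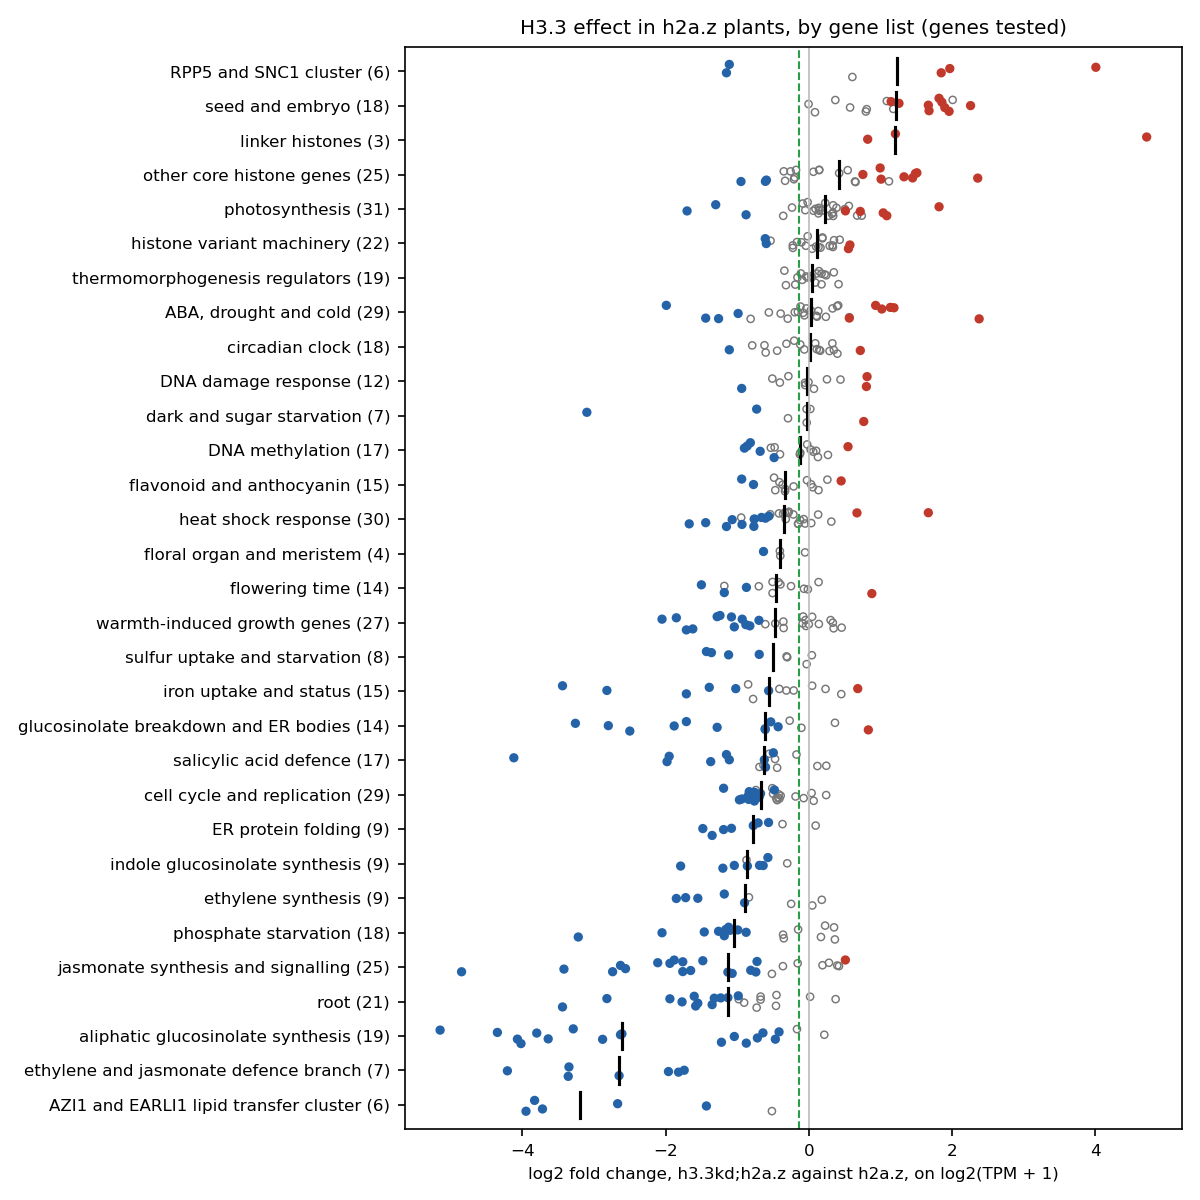
Each point is 1 tested gene of the list named on the left, placed by its log2 fold change between h3.3kd;h2a.z and h2a.z on the log2(TPM + 1) scale; the number tested is in brackets. Filled points were called higher (red) or lower (blue) at an adjusted p under 0.05, open points were not called, black bars are list medians, the dashed green line is the median of all genes (-0.14) and the grey line is 0. Medians run from -3.19 for the AZI1 and EARLI1 cluster to 1.23 for the RPP5 and SNC1 cluster, and the 19 thermomorphogenesis regulators hold no called gene.

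The defence genes that ethylene and jasmonate switch on together were high in h2a.z and low or at 0 in the combined line. Of the 9 listed, 7 were tested and all of these fell, with a median of -2.65; 4 of the 7 (the PDF1.2 genes and ORA59) passed the filter through h2a.z alone and so had to differ. PDF1.2A (AT5G44420), a plant defensin and the standard marker of this branch, read 12.6, 21.5 and 19.4 TPM in h2a.z and is listed at 0 in all other libraries (adjusted p = 3.3e-08). Its near-identical copies PDF1.2B (AT2G26020) and PDF1.2C (AT5G44430) showed the same arrangement, at 5.53, 8.37 and 3.03 and at 7.66, 13.3 and 7.55 TPM in h2a.z and listed at 0 elsewhere (adjusted p = 9.1e-06 and 3.4e-07), although reads may have been split between the copies. ORA59 (AT1G06160), an ERF transcription factor that activates PDF1.2 through the GCC box, read 12.7, 12.7 and 11.6 TPM in h2a.z and 0.112, 0.775 and 0.109 in the combined line (log2 change -3.36 ± 0.34, adjusted p = 1e-05). The h2a.z libraries stood far above the Col mean of 0.828 ± 0.746 TPM, and the combined libraries lay within the range of Col. Further members were HEL, a hevein-like protein (208 to 51.2 TPM on average, log2 change -1.96 ± 0.29, adjusted p = 0.00024), CHIB, a basic chitinase (24.9 to 6.97 TPM, log2 change -1.74 ± 0.27, adjusted p = 0.0003), and the factor ERF2 (9.58 to 1.95 TPM, log2 change -1.82 ± 0.27, adjusted p = 0.00027). The 250 bases before the annotated start of 3 of these genes are shown because they fell together and share a GCC box (GCCGCC, searched on both strands), which is in capitals. They come from RefSeq, build TAIR10.1, each read 5′ to 3′ on its gene's strand: PDF1.2A from chr5:17907639-17907888, minus strand, PDF1.2B from chr2:11088873-11089122, plus strand and ORA59 from chr1:1882657-1882906, plus strand.
PDF1.2A: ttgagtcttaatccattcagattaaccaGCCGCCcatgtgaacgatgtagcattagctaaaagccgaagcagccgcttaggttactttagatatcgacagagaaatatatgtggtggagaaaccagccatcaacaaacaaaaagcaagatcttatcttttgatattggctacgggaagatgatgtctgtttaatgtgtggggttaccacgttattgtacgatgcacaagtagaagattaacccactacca
PDF1.2B: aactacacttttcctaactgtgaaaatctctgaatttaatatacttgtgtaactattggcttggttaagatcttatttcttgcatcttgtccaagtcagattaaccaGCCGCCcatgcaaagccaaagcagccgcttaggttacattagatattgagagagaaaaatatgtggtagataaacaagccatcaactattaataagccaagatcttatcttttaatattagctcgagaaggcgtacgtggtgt
ORA59: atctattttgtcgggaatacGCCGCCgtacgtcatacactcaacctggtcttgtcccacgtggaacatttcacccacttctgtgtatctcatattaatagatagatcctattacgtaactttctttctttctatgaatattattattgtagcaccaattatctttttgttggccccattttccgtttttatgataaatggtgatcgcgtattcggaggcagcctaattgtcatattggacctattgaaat
The box stood in 3 of the 7 tested members (42.9%), against 1.94% of the 19234 tested genes with such a window and 1.74% of the genes called lower. These 3 all passed the filter through h2a.z alone and so had to fall. PDF1.2C, HEL, CHIB and ERF2, which fell too, had no match in this window. A match is only a description of the letters, and the motifs and the promoters printed were chosen after the values were seen.

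Jasmonate synthesis and signalling moved the same way. Of the 26 list genes in the table, 25 were tested; 17 fell, 1 rose and 7 were not called, with a median of -1.13, and 4 passed the filter through 1 genotype, NATA1 and TAT3 among them. Rises numbered 4 under median-ratio rescaling, 3 under quantile normalization, 2 without h3.3kd 2 and 0 without h2a.z 1 or combined 2. The allene oxide cyclases, which close the ring of the jasmonate precursor, had the steepest falls among the synthesis enzymes named here. AOC3 (AT3G25780) read 30.3, 27.9 and 25.6 TPM in h2a.z and 2.84, 3.12 and 4.1 in the combined line (log2 change -2.74 ± 0.29, adjusted p = 1.2e-05). All h2a.z libraries were above the Col libraries (7.76, 5.43 and 8.51 TPM) and all combined libraries below them. AOC1 (AT3G25760) fell from 26.3 ± 8.58 to 3.49 ± 0.625 TPM (n = 3; log2 change -2.56 ± 0.27, adjusted p = 1.4e-05) and AOC2 (AT3G25770) from 39.9 ± 12.9 to 5.36 ± 0.323 (log2 change -2.63 ± 0.25, adjusted p = 5.8e-06), with the caution that these cyclases are close copies in 1 cluster. The lipoxygenase LOX4 fell as well (-1.65, adjusted p = 0.00093), and AOS, the allene oxide synthase, was not called (-0.36, adjusted p = 0.059). Among the JAZ repressors, which jasmonate itself induces, JAZ1 (38.7 to 9.46 TPM, log2 change -1.94 ± 0.26, adjusted p = 8.9e-05), JAZ10 (-1.88, adjusted p = 0.00021), JAZ6 (-1.76, adjusted p = 5.6e-05) and JAZ9 (-1.13, adjusted p = 0.0011) fell, whereas JAZ2, JAZ3 and JAZ12 were not called (-0.15, 0.42 and 0.19). The receptor gene COI1 and the factor MYC3 were not called (0.28 and 0.40). The 1 member that rose, MYC4 (0.51, adjusted p = 0.022), lost its call without h2a.z 1 (0.096), h2a.z 3 (0.074) or combined 2 (0.1), over a range of 0.0061 to 0.1. Of the response genes, NATA1 (AT2G39030), an acetyltransferase that jasmonate induces, read 13.5, 24.4 and 63.5 TPM in h2a.z and is listed at 0 in the other 9 libraries (adjusted p = 9.5e-07). TAT3 (AT2G24850), a tyrosine aminotransferase used as a jasmonate marker, read 6.70, 6.81 and 23.0 TPM in h2a.z and 0, 0 and 0.188 in the combined line (log2 change -3.42 ± 0.35, adjusted p = 1e-05). VSP1, a vegetative storage protein, fell from 11.44 ± 4.66 to 1.76 ± 0.480 TPM (log2 change -2.11 ± 0.32, adjusted p = 0.0003). In NATA1 and TAT3 the third h2a.z library was the highest and the order of the groups held in every library.

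Ethylene synthesis genes fell in part: 5 of the 9 tested were called lower, none higher, with a median of -0.90. Of these 9 genes 1 passed the filter through 1 genotype. ACS8 (AT4G37770), ACS11 and ACS6 encode ACC synthases, the rate-limiting step. ACS8 read 4.85, 7.28 and 9.16 TPM in h2a.z and 1.29, 0.810 and 1.54 in the combined line (log2 change -1.85 ± 0.28, adjusted p = 0.00027), and the groups did not overlap. ACS11 (-1.72, adjusted p = 0.00011), ACS6 (-1.55, adjusted p = 0.00099) and the ACC oxidase ACO1 (-1.18, adjusted p = 0.0026) fell too. The more abundant oxidase ACO4 was not called (368 and 381 TPM, adjusted p = 0.8).

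The steepest list median, -3.19, belonged to a row of lipid-transfer-like genes on chromosome 4 that includes AZI1, which takes part in systemic immunity. All 6 were tested and 5 fell. AZI1 (AT4G12470) read 127, 142 and 178 TPM in h2a.z and 3.24, 5.29 and 31.9 in the combined line (log2 change -3.95 ± 0.56, adjusted p = 0.00015). EARLI1 (AT4G12480) read 146, 155 and 302 and 9.30, 5.69 and 43.0 TPM (log2 change -3.72 ± 0.55, adjusted p = 0.00023). In each pair the combined libraries were all lower, and combined 3 was the highest of them. AZI3 (AT4G12490) showed the same order, with 17.5, 28.1 and 50.3 TPM against 0.775, 0 and 4.36 (log2 change -3.83 ± 0.49, adjusted p = 6.8e-05). AT4G12510, the fifth gene in the row, was not called (4.49 and 2.13 TPM, adjusted p = 0.5). The members are similar in sequence, so reads may have been split between them.

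Salicylic acid defence genes fell in part. Of 22 list genes in the table, 17 were tested, 9 fell and none rose (median -0.62), 4 of the 17, PR5 and PCC1 among them, having passed the filter through 1 genotype; with quantile normalization 5 fell and 1 rose. PR5 (AT1G75040), a thaumatin-like protein, read 15.0, 25.4 and 23.6 TPM in h2a.z and 0.810, 0 and 0.0874 in the combined line (log2 change -4.12 ± 0.26, adjusted p = 1.7e-07). Its h2a.z values were several times the Col mean of 3.73 ± 0.344 TPM, and its combined values were below every Col library. The factor WRKY70 fell from 13.4 ± 1.38 to 2.87 ± 1.3 TPM (log2 change -1.95 ± 0.27, adjusted p = 0.00013), and PAD4, a lipase-like regulator of basal immunity, from 11.8 ± 1.01 to 4.83 ± 1.14 (log2 change -1.15 ± 0.22, adjusted p = 0.0015). PCC1 read 6.12, 1.88 and 3.07 TPM in h2a.z and 0, 0.357 and 0 in the combined line (log2 change -1.98 ± 0.29, adjusted p = 0.0002). The synthesis gene ICS1 (5.64 and 6.22 TPM) and the receptor gene NPR1 (37.2 and 32.9 TPM) were not called, and PR1 is listed at 0 in all 6 libraries.

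The RPP5 and SNC1 cluster, a run of TIR-NB-LRR disease resistance genes on chromosome 4, was mixed: of 6 tested genes 3 rose and 2 fell, or 4 rose and 1 fell under quantile normalization. Of the 6, 2, AT4G16960 and AT4G16920, passed the filter through 1 genotype and so had to differ. RPP5 (AT4G16950) read 1.75, 1.89 and 1.51 TPM in h2a.z and 43.7, 45.1 and 39.3 in the combined line (log2 change 4.01 ± 0.22, adjusted p = 4.3e-08). The 3 combined values lay above those of Col (23.9, 27.3 and 32.2 TPM), so the low level was seen in h2a.z and in no other genotype. SNC1 (AT4G16890) rose from 22.9 ± 3.40 to 92.5 ± 8.36 TPM (log2 change 1.97 ± 0.26, adjusted p = 8.7e-05), and AT4G16960 from 0.246 ± 0.118 to 3.52 ± 0.806 (log2 change 1.85 ± 0.26, adjusted p = 0.00013). AT4G16900 fell from 23.8 ± 2.61 to 10.5 ± 1.3 TPM (log2 change -1.11 ± 0.21, adjusted p = 0.0017), and RPP4 was not called (0.61, adjusted p = 0.051). These genes share long stretches of sequence and reads may have been split between them.

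Glucosinolates are the sulfur-rich defence compounds of this plant family, made from methionine (aliphatic) or tryptophan (indole). For the aliphatic branch 17 of the 19 tested genes fell and none rose, with a median of -2.61; 24 list genes were in the table and 2 of the 19, CYP83A1 among them, passed the filter through 1 genotype. Under median-ratio rescaling 13 fell and under quantile normalization 14. Chain elongation of methionine begins with BCAT4 (AT3G19710), which read 20.4, 41.3 and 43.8 TPM in h2a.z and 0.512, 1.24 and 0.407 in the combined line (log2 change -4.35 ± 0.31, adjusted p = 4.1e-07). The later elongation enzymes followed: IMD1, a dehydrogenase (77.0 to 3.50 TPM, log2 change -4.07 ± 0.28, adjusted p = 3.5e-07), IPMI1, an isomerase subunit (38.0 to 1.41 TPM, log2 change -4.02 ± 0.30, adjusted p = 5.7e-07), and the synthase MAM3 (38.1 to 1.75 TPM, log2 change -3.80 ± 0.28, adjusted p = 5.7e-07). The h2a.z values of these 4 genes were above every Col library and the combined values below. CYP83A1 (AT4G13770), which oxidises the aldoximes of this branch, had the largest fall of the list, from 28.3, 54.6 and 45.6 TPM to 0.0609, 0.601 and 0 (log2 change -5.15 ± 0.29, adjusted p = 7.7e-08). Of the h2a.z libraries 2 were above every Col library (28.5, 34.7 and 16.3 TPM) and 1 lay within their range. MYB28, the main activator of the branch, fell from 35.4 ± 4.41 to 4.87 ± 0.565 TPM (log2 change -2.63 ± 0.20, adjusted p = 6.6e-07), with Col at 27.3 ± 6.51. Of the later steps, the lyase SUR1 (-1.04, adjusted p = 0.00015) and the sulfotransferase SOT17 (-0.87, adjusted p = 0.002) fell, and GSTU20 and BCAT3 were not called (0.22 and -0.16).

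For the indole branch 7 of the 9 tested genes fell, with a median of -0.86. The count was 4 without h2a.z 2 or h2a.z 3, and 3 without combined 1 or combined 3. The activator MYB51 (AT1G18570) read 53.5, 44.8 and 47.7 TPM in h2a.z and 16.7, 26.3 and 19.5 in the combined line (log2 change -1.20 ± 0.22, adjusted p = 0.00097), without overlap. SOT16, the sulfotransferase of the last step, fell from 177 ± 11 to 97.4 ± 12.8 TPM (log2 change -0.86 ± 0.14, adjusted p = 0.00053). Among genes for the breakdown of glucosinolates and for ER bodies, which store the enzymes, 10 of 14 fell and 1 rose (median -0.61), or 6 and 1 under median-ratio rescaling; the 1 rise, of TGG2, is described further on. ESM1 passed the filter through h2a.z alone and so had to differ. ESM1 (AT3G14210), which steers breakdown towards isothiocyanates, read 12.3, 16 and 15.7 TPM in h2a.z and 0.448, 0.786 and 0.676 in the combined line (log2 change -3.26 ± 0.16, adjusted p = 1.3e-08). Both groups were far below Col (207, 268 and 207 TPM) and h3.3kd (122, 129 and 108 TPM). JAL33, a lectin-like protein, had the same order, at 157 ± 10.9 TPM in Col, 8.05 ± 2.42 in h2a.z and 1.43 ± 0.414 in the combined line (log2 change -1.88 ± 0.22, adjusted p = 3.7e-05). The root ER-body glucosidases BGLU21 (139.7 to 19.0 TPM, log2 change -2.80 ± 0.23, adjusted p = 1.9e-06) and BGLU22 (148 to 24.6 TPM, log2 change -2.50 ± 0.25, adjusted p = 8.8e-06) fell as well. The main leaf myrosinase TGG1 was not called (721 and 599.6 TPM, adjusted p = 0.1).

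**Figure D2:**
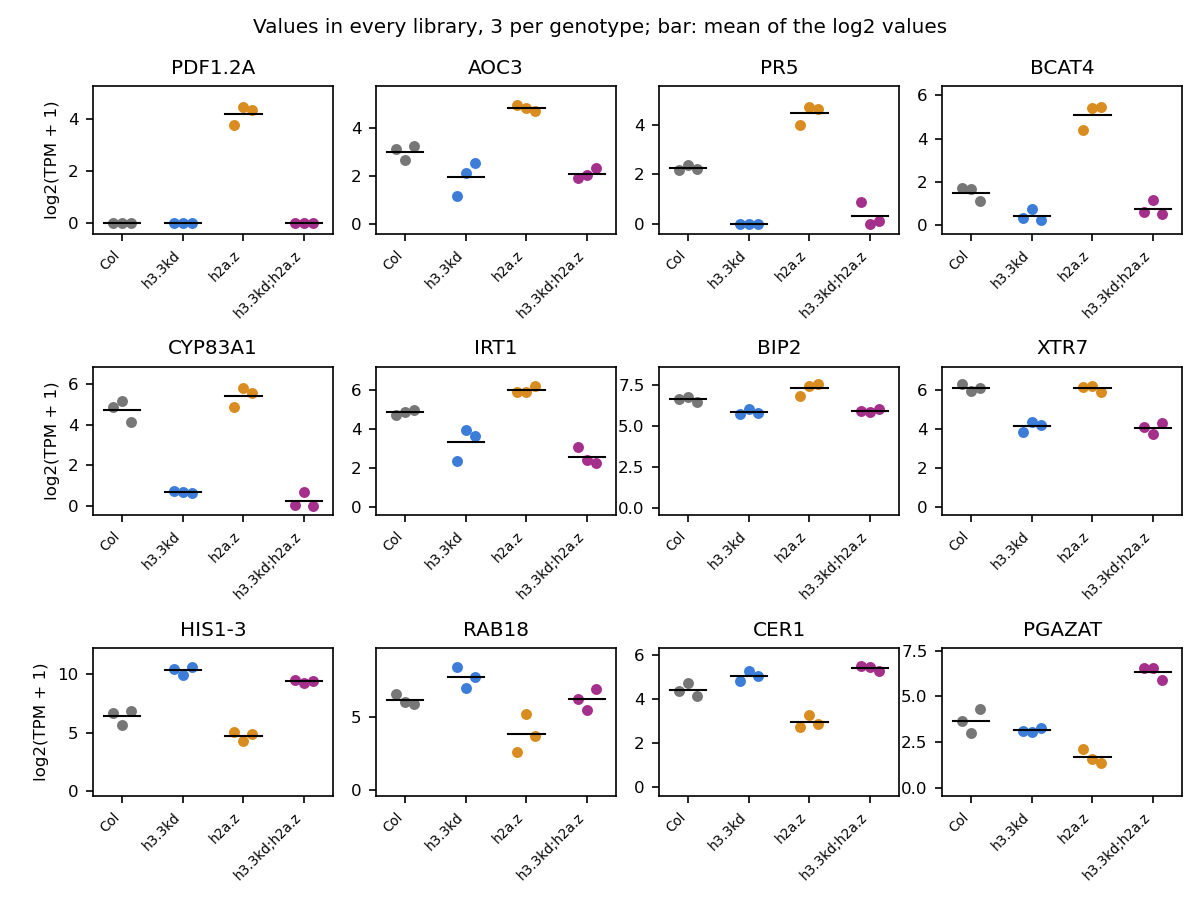
Each panel shows 1 gene, with log2(TPM + 1) on the vertical axis and 1 point for each of the 12 libraries, 3 per genotype; bars are the means of the log2 values. For PDF1.2A, AOC3, PR5, BCAT4, CYP83A1, IRT1, BIP2 and XTR7 the h2a.z libraries are above the h3.3kd;h2a.z libraries, and PDF1.2A is listed at 0 outside h2a.z; for HIS1-3, RAB18, CER1 and PGAZAT they are below them.

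Iron and phosphate genes fell in part, and so did root markers. Of 15 tested iron genes 6 fell and 1 rose (median -0.56). Under median-ratio rescaling 4 fell and 2 rose, under quantile normalization 5 and 2, and 10 fell with array weights. No rise was called without h2a.z 2 or combined 1. The summed level of the 17 iron genes was 578 to 664 TPM in h2a.z and 617 to 638 in the combined line. IRT1 (AT4G19690), the main iron importer of the root surface, read 60.0, 59.0 and 74.4 TPM in h2a.z and 7.43, 4.32 and 3.82 in the combined line (log2 change -3.44 ± 0.32, adjusted p = 5.1e-06). FRO2 (AT1G01580), the ferric reductase that works with it, read 16.7, 19.1 and 21.9 and 2.56, 1.0 and 2.23 TPM (log2 change -2.82 ± 0.29, adjusted p = 1.1e-05). Neither gene's groups overlapped, and h2a.z was above Col in both (means of 28.4 TPM for IRT1 and 5.95 for FRO2 in Col). The iron-deficiency factors BHLH100 (-1.71, adjusted p = 0.0011) and BHLH101 (-1.39, adjusted p = 0.0042) fell, and BHLH38 and BHLH39 were not called (-0.85 and -0.78). Among root genes 12 of the 21 tested fell and none rose (median -1.13; 1 rose without h3.3kd 2), with IRT1 and FRO2 counted in both lists and 4 members, WER and RHD6 among them, having passed the filter through 1 genotype. The summed level of the 22 root genes was 345 to 389 TPM in h2a.z, 169 to 177 in the combined line and 248 to 369 in Col. WER, an epidermal fate factor, fell from 4.23 ± 0.766 to 0.356 ± 0.0482 TPM (log2 change -1.94 ± 0.27, adjusted p = 0.00012), RHD6, a root hair factor, from 2.89 ± 1.07 to 0.290 ± 0.305 (log2 change -1.58 ± 0.30, adjusted p = 0.0016), and MYB36, an endodermis factor, from 7.81 ± 1.11 to 1.91 ± 0.438 (log2 change -1.60 ± 0.32, adjusted p = 0.0022). The root patterning genes SCR and SHR and the epidermal gene GL2 were not called (0.37, -0.45 and 0.02). The part of root markers in the iron, phosphate, AZI1 and BGLU21 results was not tested; in whole seedlings, fewer cells of a type and less RNA per cell cannot be told apart.

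Of 22 phosphate starvation genes in the table, 18 were tested, 11 fell and none rose, with a median of -1.04 (9 fell and 1 rose under quantile normalization, 11 and 2 under median-ratio rescaling, 1 rise without h3.3kd 2); 2 passed the filter through 1 genotype. AT4 (AT5G03545), a non-coding RNA of phosphate starvation, read 33.1, 25.4 and 23.1 TPM in h2a.z and 1.82, 1.03 and 3.67 in the combined line (log2 change -3.22 ± 0.37, adjusted p = 2.6e-05). The h2a.z libraries were at the level of Col (mean 31.0 ± 8.13 TPM) and all combined libraries far below. The phosphate transporter PHT1;4 fell from 19.7 ± 4.36 to 4.0 ± 1.04 TPM (log2 change -2.05 ± 0.26, adjusted p = 6.5e-05), the lipid-remodelling enzyme MGD2 from 6.64 ± 1.08 to 1.77 ± 0.354 (log2 change -1.46 ± 0.23, adjusted p = 0.00034), and the phosphate exporter PHO1 from 46.8 ± 3.75 to 18.9 ± 0.472 (log2 change -1.26 ± 0.23, adjusted p = 0.0011). GDPD1 (AT3G02040), a glycerophosphodiesterase, read 128, 119 and 67.6 TPM in h2a.z and 40.7, 46.1 and 46.8 in the combined line (log2 change -1.16 ± 0.20, adjusted p = 0.00069), and Col was at 36.3 ± 4.58. The activator PHR1 and the regulator PHO2 were not called (0.23 and 0.35). The windows before AT4 (chr5:894332-894581, plus strand) and GDPD1 (chr3:350011-350260, minus strand) are shown because PHR1 is known to bind the P1BS motif (GNATATNC, searched on both strands), here in capitals, and because these genes differ in whether h2a.z was raised above Col.
AT4: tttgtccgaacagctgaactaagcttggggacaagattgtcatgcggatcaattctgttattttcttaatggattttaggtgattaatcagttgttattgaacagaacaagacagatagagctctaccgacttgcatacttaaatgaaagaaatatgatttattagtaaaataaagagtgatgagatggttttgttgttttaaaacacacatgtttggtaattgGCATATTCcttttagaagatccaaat
GDPD1: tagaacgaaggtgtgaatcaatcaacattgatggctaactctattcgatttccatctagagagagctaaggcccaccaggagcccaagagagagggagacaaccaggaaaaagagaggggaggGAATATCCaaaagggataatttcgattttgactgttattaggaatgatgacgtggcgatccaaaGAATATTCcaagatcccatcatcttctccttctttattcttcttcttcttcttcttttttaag
The motif was found in 6 of the 18 tested members (33.3%), in 5.38% of the windows of all tested genes and in 5.81% of those called lower. Of 8 tested sulfur genes, 1 of which passed the filter through 1 genotype, 4 fell and none rose, among them APR1, the adenylylsulfate reductase (79.0 to 29.4 TPM, log2 change -1.36 ± 0.22, adjusted p = 0.00053).

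Genes of the warmth response divided by role. Among 19 regulators of thermomorphogenesis none was called either way, with a median of 0.04, which exceeds the all-gene median; quantile normalization called 1 higher, and array weights or the 6 libraries alone 1 higher and 1 lower. PIF4 (AT2G43010), the central growth factor of the response, read 29.6, 17.8 and 16.1 TPM in h2a.z and 19.1, 19.5 and 17.9 in the combined line (log2 change -0.11 ± 0.21, adjusted p = 0.75), and its sign turned under both rescalings, with array weights and without h2a.z 1. The thermosensors PHYB (-0.09 ± 0.19, adjusted p = 0.77) and ELF3 (0.09 ± 0.20, adjusted p = 0.79) were not called. Among growth genes that warmth is known to induce, 12 of 27 tested fell and none rose (median -0.47; 1 rose under either rescaling and without h2a.z 3, h3.3kd 2 or h3.3kd 3), 1 of the 27 having passed the filter through 1 genotype. XTR7 (AT4G14130), a cell wall xyloglucan enzyme, read 70.4, 72.0 and 58.0 TPM in h2a.z and 16.1, 12.3 and 18.4 in the combined line (log2 change -2.05 ± 0.18, adjusted p = 2.3e-06), without overlap. TCH4, of the same enzyme family, fell from 83.5 ± 6.75 to 24.8 ± 2.35 TPM (log2 change -1.71 ± 0.18, adjusted p = 1.1e-05). The auxin-induced repressors IAA19 (14.8 to 4.14 TPM, log2 change -1.62 ± 0.38, adjusted p = 0.0058) and IAA29 (29.1 to 13.3 TPM, log2 change -1.08 ± 0.29, adjusted p = 0.013) fell, and so did TAA1 of auxin synthesis (17.3 to 8.64 TPM, log2 change -0.93 ± 0.18, adjusted p = 0.0019). YUC8, the next enzyme, fell from 19.5 ± 3.81 to 11.8 ± 3.26 TPM (log2 change -0.70 ± 0.21, adjusted p = 0.027), but the call ended under both rescalings and without h2a.z 2 (adjusted p = 0.066), h2a.z 3 (0.12) or combined 1 (0.15), over a range of 0.0029 to 0.15. The 6 SAUR19 to SAUR24 genes, near-identical auxin-response genes, were not called (-0.35 to 0.35). No list gene was compared with 21 °C, so these are differences at 27 °C only.

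Chaperone genes fell in the endoplasmic reticulum (ER) and were mixed in the cytosol. Of 9 ER folding genes 7 fell and none rose, with a median of -0.77 and the same count under both rescalings. BIP3 passed the filter through h2a.z alone and so had to differ. BIP2 (AT5G42020), the ER form of HSP70, read 112, 177 and 191 TPM in h2a.z and 58.8, 56.6 and 66.1 in the combined line (log2 change -1.35 ± 0.18, adjusted p = 7.8e-05). Its near-identical copy BIP1 fell from 188 ± 40.4 to 80.2 ± 2.50 TPM (log2 change -1.19 ± 0.16, adjusted p = 9.6e-05), the calreticulin CRT1A from 164 ± 21.6 to 76.7 ± 4.04 (log2 change -1.08 ± 0.14, adjusted p = 5.5e-05), and BIP3, the most stress-specific of the 3 BIP genes, from 2.84 ± 1.05 to 0.348 ± 0.167 (log2 change -1.48 ± 0.27, adjusted p = 0.0011). The ER stress factors BZIP28 and BZIP60 were not called (0.10 and -0.37). In the heat shock list 10 of 30 tested genes fell and 2 rose (median -0.35), 1 having passed the filter through 1 genotype. The count of falls was 4 without h2a.z 2, 6 without h2a.z 3, combined 1 or combined 2, 5 without combined 3, and 4 under quantile normalization; the 2 rises became 1 without combined 3. HSP90.2 (AT5G56030), a cytosolic HSP90 with close copies beside it, rose from 61.1, 78.1 and 84.4 TPM to 225, 249.7 and 239 (log2 change 1.67 ± 0.17, adjusted p = 1e-05). The combined libraries reached the level of Col (157, 247 and 186 TPM), whereas h2a.z lay below it in every library. HSP70-4, an inducible HSP70, fell from 88.1 ± 15.2 to 51.1 ± 1.72 TPM (log2 change -0.76 ± 0.14, adjusted p = 0.001), and the co-chaperone HOP3 from 76.1 ± 10.11 to 44.2 ± 4.90 (log2 change -0.77 ± 0.14, adjusted p = 0.0014). HSP90.1, the heat-inducible HSP90, was not called (48.3 and 44.2 TPM, adjusted p = 0.59).

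Linker histone genes and part of the core histone genes rose. All 3 linker histone genes rose. HIS1-3 (AT2G18050), the stress-inducible H1 variant, read 31.4, 18.8 and 28.1 TPM in h2a.z and 756, 625 and 714 in the combined line, a 26.3-fold rise on the log2(TPM + 1) scale (log2 change 4.72 ± 0.28, adjusted p = 9.1e-08). The lowest combined library was above the highest Col library (103, 50.5 and 119 TPM), and all 3 h2a.z libraries were below Col. H1.2 rose from 211 ± 9.65 to 489 ± 18.3 TPM (log2 change 1.21 ± 0.11, adjusted p = 3.4e-06) and H1.1 from 309 ± 10.7 to 549 ± 46.0 (log2 change 0.82 ± 0.12, adjusted p = 0.00015). Of 25 other core histone genes 8 rose and 3 fell (median 0.42; 10 and 1 under median-ratio rescaling). The H4 genes AT3G53730 (64.0 to 331 TPM, log2 change 2.36 ± 0.17, adjusted p = 4.9e-07) and HIS4 (58.2 to 161 TPM, log2 change 1.45 ± 0.25, adjusted p = 0.00074) rose, as did HTA7, of the wider H2A family (81.0 to 138 TPM, log2 change 0.76 ± 0.18, adjusted p = 0.0066). The falls were of HTA5, HTA6 and HTA13, of the same family. HTA5 and HTA6 were not called under median-ratio rescaling. HTA13 was not called without h2a.z 1, h2a.z 2 or combined 2 (adjusted p = 0.053, 0.061 and 0.07, in a range of 8.9e-05 to 0.07). Copies of one histone share most of their coding sequence. HTR6, an H3.3-like gene, passed the filter through the combined line alone and so had to differ. It read 0.130, 0.127 and 0.704 TPM in h2a.z and 2.76, 2.05 and 3.35 in the combined line (log2 change 1.51 ± 0.25, adjusted p = 0.00047), which left it below the HTR8 level of 8.12 to 8.98 TPM in the same libraries. Of the canonical H3 genes HTR1, HTR2, HTR9 and HTR13 were not called (-0.33 to 0.15). HTR3, of the same group, rose from 3.99, 3.50 and 4.97 TPM to 14.2, 11.1 and 15.2 (log2 change 1.49 ± 0.41, adjusted p = 0.014), a call that ended without h2a.z 2 (0.055) or combined 3 (0.054), over a range of 2e-05 to 0.055. Of 22 genes for loading and removing the variants 2 rose and 2 fell; the falls were 1 without h2a.z 2, h2a.z 3 or any single combined library, and the rises 5 under quantile normalization. The chaperone NAP1;2 rose (0.55, adjusted p = 0.0023) and its relative NAP1;3 fell (-0.59, adjusted p = 0.0042), and SWC4, a subunit of the complex that deposits H2A.Z, rose from 12.1 ± 0.463 to 18.5 ± 1.37 TPM (log2 change 0.57 ± 0.14, adjusted p = 0.007). The H3.3 chaperone subunit HIRA was not called (0.43, adjusted p = 0.18).

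Several larger rises were of genes outside the lists. PGAZAT (AT2G41850), a polygalacturonase of cell separation, read 3.32, 2.04 and 1.56 TPM in h2a.z and 91.0, 93.3 and 58.6 in the combined line, 24.9-fold higher on the log2(TPM + 1) scale (log2 change 4.64 ± 0.30, adjusted p = 2e-07). The combined libraries were above all 9 other libraries, with Col at 12.6 ± 6.03 TPM and h3.3kd at 7.97 ± 0.727. CER1 (AT1G02205), which makes the alkanes of cuticular wax, rose from 5.67, 8.58 and 6.24 TPM to 44.8, 42.8 and 38.5 (log2 change 2.47 ± 0.19, adjusted p = 7.9e-07). LTP2, a lipid transfer protein of the cuticle, rose from 96.7 ± 11.1 to 444 ± 34.6 TPM (log2 change 2.19 ± 0.24, adjusted p = 1.5e-05); for LTP3 (log2 change 2.24 ± 0.58, adjusted p = 0.011) the call ended without h2a.z 1 (adjusted p = 0.063) or combined 3 (0.055), over a range of 0.00024 to 0.063. THI2.2, a thionin, rose from 2.64 ± 0.195 to 20.0 ± 2.52 TPM (log2 change 2.52 ± 0.17, adjusted p = 3.6e-07), and CEP1, a cysteine endopeptidase, from 0.718 ± 0.434 to 8.80 ± 2.57 (log2 change 2.51 ± 0.25, adjusted p = 9.4e-06). GH9B15, of a cellulase family, is listed at 0 in h2a.z and read 10.5, 14.7 and 3.71 TPM in the combined line. It passed the filter through the combined line alone and so had to differ.

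Abscisic acid (ABA), drought and cold genes went both ways: 6 of 29 tested rose and 4 fell (median 0.03), 1 having passed the filter through 1 genotype. RAB18 (AT5G66400), an ABA-induced dehydrin, read 5.18, 36.5 and 12.3 TPM in h2a.z and 75.9, 45.1 and 122 in the combined line (log2 change 2.38 ± 0.52, adjusted p = 0.0039). The h2a.z libraries varied widely, and the highest of them came close to the lowest combined library. RD29A (14.5 to 33.7 TPM, log2 change 1.19 ± 0.27, adjusted p = 0.005) and its neighbour RD29B (14.6, 29.7 and 16.9 against 39.7, 32.5 and 42.8 TPM, log2 change 0.93 ± 0.21, adjusted p = 0.0042), both desiccation-responsive, rose. The dehydrins LTI30 and COR47 moved the other way: LTI30 read 26.8, 26.2 and 25.4 TPM and 5.15, 6.08 and 6.35 (log2 change -1.99 ± 0.17, adjusted p = 2.8e-06), and COR47 fell from 224 ± 9.14 to 112 ± 7.09 (log2 change -0.99 ± 0.17, adjusted p = 0.00086). CYP707A1 and CYP707A3, which break down ABA, fell (-1.44, adjusted p = 0.00046, and -1.26, adjusted p = 0.0038), and NCED3, which makes it, was not called (-0.08). The window before RD29B (AT5G52300, chr5:21236771-21237020, plus strand) is shown for its 3 copies of the ABA-response element (ABRE, ACGTGNC, both strands, in capitals), a letter string that can overlap the G-box CACGTG.
RD29B: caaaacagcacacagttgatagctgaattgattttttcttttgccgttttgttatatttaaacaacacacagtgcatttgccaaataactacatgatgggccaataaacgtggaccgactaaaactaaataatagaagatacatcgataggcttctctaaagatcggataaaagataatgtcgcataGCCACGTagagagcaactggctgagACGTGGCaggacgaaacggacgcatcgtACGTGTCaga
The element was in 9 of the 29 tested members (31%), 9.65% of all windows and 12.2% of those of genes called higher. Seed and embryo genes, which ABA also governs, rose in 9 of 18 tested cases and fell in none (median 1.22); 9 more in the table were not tested. SESA1 passed the filter through the combined line alone and so had to differ. The count was 5 without h2a.z 1, 4 without h2a.z 3 or combined 3, and 3 without combined 1. LEA18 (AT2G35300), a late embryogenesis protein, read 9.93, 22.3 and 6.2 TPM in h2a.z and 53.0, 28.7 and 53.7 in the combined line (log2 change 1.86 ± 0.39, adjusted p = 0.0029). SESA1, a seed storage albumin, rose from 0.814, 0.956 and 0.147 TPM to 6.41, 7.36 and 2.86 (log2 change 1.96 ± 0.46, adjusted p = 0.006). PER1, a seed peroxiredoxin, was called (log2 change 1.68 ± 0.41, adjusted p = 0.0078) although its libraries overlapped, at 1.76, 8.97 and 1.67 and 14.0, 7.5 and 17.9 TPM. The seed regulators ABI3, FUS3, LEC1 and LEC2 were under the filter, with at most 1.66 TPM on average in either group. Summed seed levels were 230.2 to 288 TPM in h2a.z and 389 to 871 in the combined line.

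Cell cycle genes fell in part and without a rise: 14 of 29 were called lower (median -0.67). The count was 8 without h2a.z 1, 9 without combined 1, 8 without combined 3 and 9 under quantile normalization. PCNA1 (AT1G07370), the sliding clamp of replication, read 26.6, 31.1 and 30.3 TPM in h2a.z and 13.1, 13.9 and 10.2 in the combined line (log2 change -1.19 ± 0.19, adjusted p = 0.00047). The helicase subunits MCM2 (-0.97, adjusted p = 0.0021), MCM4 (-0.85, adjusted p = 0.0025) and MCM7 (-0.84, adjusted p = 0.0039) fell, and so did AUR1, a mitotic kinase gene (-0.83, adjusted p = 0.0046). Of 17 DNA methylation genes 5 fell and 1 rose, and the median of -0.13 turned to 0.01 under both rescalings. The count of falls was 3 without h2a.z 1 or combined 3 and 8 without h3.3kd 2, and the rise was lost without h2a.z 1, h2a.z 3, combined 1 or combined 2. The chromomethylases CMT3 (23.3 to 12.4 TPM, log2 change -0.86 ± 0.17, adjusted p = 0.0017) and CMT2 (20.0 to 10.3 TPM, log2 change -0.90 ± 0.17, adjusted p = 0.0016) fell together.

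Photosynthesis genes were high in both groups and higher in sum in the combined line, at 118160 to 123650 TPM over the 31 genes against 80811 to 87381 in h2a.z and 91734 to 108280 in Col. Since TPM adds up to the same total in every library, a rise in such abundant transcripts lowers the share left to others. Its part in the falls was not tested. By gene 5 of 31 were called higher and 3 lower (median 0.23), and quantile normalization gave 2 and 4. The rises numbered 3 without h2a.z 1, h2a.z 3 or any single combined library, 8 without Col 1 and 11 without h3.3kd 2. LHCB1.2 (AT1G29910), a light-harvesting protein of photosystem II, read 1870, 2760 and 2488 TPM in h2a.z and 8332, 8279 and 8221 in the combined line (log2 change 1.82 ± 0.27, adjusted p = 0.00026). The LHCB2 genes of the same antenna fell, LHCB2.4 from 10.4 ± 3.63 to 2.43 ± 0.656 TPM (log2 change -1.70 ± 0.29, adjusted p = 0.00076) and LHCB2.2 from 77.1 ± 8.80 to 30.8 ± 4.52 (log2 change -1.30 ± 0.23, adjusted p = 0.00078). Copies within LHCB1 and within LHCB2 are nearly identical, so the split of reads inside each group is uncertain. Among 18 clock genes GI fell (6.96 to 2.69 TPM, log2 change -1.11 ± 0.23, adjusted p = 0.0026) and ZTL rose (41.9 to 68.6 TPM, log2 change 0.72 ± 0.17, adjusted p = 0.0055); without h3.3kd 2 the counts were 4 lower and 2 higher, and under quantile normalization 1 and 4. In the flowering list 3 of 14 genes fell, 1 of them having passed the filter through 1 genotype, and 1 rose (5 fell without Col 1, and 1 under quantile normalization). There SOC1, a floral promoter, rose (4.88 to 9.60 TPM, log2 change 0.88 ± 0.22, adjusted p = 0.0087), SNZ, a repressor, fell (9.77 to 2.82 TPM, log2 change -1.50 ± 0.25, adjusted p = 0.00055), and FLC, another repressor, fell (4.91 to 2.21 TPM, log2 change -0.87 ± 0.19, adjusted p = 0.0039) but not under quantile normalization (adjusted p = 0.12; range 6.6e-05 to 0.12). Few genes were called in the lists for flavonoids (1 higher and 2 lower of 15), DNA damage (2 and 1 of 12), dark and sugar starvation (1 and 2 of 7) and floral organs (0 and 1 of 4); these counts moved by 1 or 2 when single libraries were left out, and the sign of each median turned under a rescaling.

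The effect of H3.3 knockdown was then set beside the same effect in plants with H2A.Z, h3.3kd against Col, which uses the other 6 libraries. There 1051 genes were higher (5.44%) and 2280 lower (11.8%). The h3.3kd libraries were uneven. Their 10 most abundant genes held 12.6%, 7.37% and 9.34% of the TPM, against 7.33% to 8.65% in Col. Genes above 0 numbered 20831, 19590 and 20888 in h3.3kd, against 21200 to 21822 in Col. This comparison and the interaction therefore rest in part on an uneven group. So do the calls of the pair, because their spread was estimated over all 12 libraries. Without h3.3kd 2 the pair had 1508 rises and 4696 falls, against 1054 and 3803. Across the 19334 genes the log2 fold changes of the 2 backgrounds had Pearson's r of 0.61 and Spearman's rho of 0.61, and their SDs were 0.67 with h2a.z and 0.54 without it; genes are not independent, so no test goes with these values. Of the genes lower in the h2a.z background 39.0% were also lower in h3.3kd against Col, and of those lower in h3.3kd against Col 65% were also lower in the h2a.z background. For rises the shares were 41.8% and 41.9%. Opposite calls were made for 13 genes higher with h2a.z and lower without it, and for 20 genes the reverse. XTR7 illustrates a like effect, with -1.96 ± 0.18, adjusted p = 1.1e-05 in h3.3kd against Col and an interaction of -0.09 ± 0.25, adjusted p = 0.93. HIS1-3 (3.93 ± 0.28, adjusted p = 2.1e-06; interaction 0.79 ± 0.39, adjusted p = 0.4), MYB28 (-2.73 ± 0.20, adjusted p = 2.6e-06; interaction 0.10 ± 0.28, adjusted p = 0.92), AT4 (-2.84 ± 0.37, adjusted p = 0.0002; interaction -0.38 ± 0.52, adjusted p = 0.83) and PCNA1 (-1.16 ± 0.19, adjusted p = 0.0013; interaction -0.03 ± 0.27, adjusted p = 0.98) were also changed in both backgrounds without a called difference. An interaction that was not called does not show that the effects are equal.

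In a test of the difference itself, the interaction was called for 486 genes (2.51%): the H3.3 effect was lower with h2a.z for 374 (1.93%) and higher for 112 (0.579%). Of the 374, 340 were called lower in the combined line than in h2a.z, and 274 of these 340 were not called in h3.3kd against Col. In 291 of the 340 the h2a.z mean was more than 2-fold above Col (on TPM + 1). In 245 of these 291 the combined mean lay within 2-fold of Col. These counts, like those for the 112 below, use values that entered the selection of the genes. Selecting for a lower effect with h2a.z favours a high h2a.z and a low Col mean, so the counts are descriptions. Without Col 2, h2a.z 2, h2a.z 3, h3.3kd 3, combined 1 or combined 3 the 374 became 229 to 242. Among jasmonate genes 9 of the 25 tested had a lower H3.3 effect with h2a.z, and none a higher one. JAZ1 stood at 8.80 ± 1.35 TPM in Col, 12.1 ± 4.57 in h3.3kd, 38.7 ± 5.94 in h2a.z and 9.46 ± 2.46 in the combined line (interaction -2.31 ± 0.36, adjusted p = 0.0031). AOC1 stood at 7.43 ± 1.17, 7.08 ± 2.34, 26.3 ± 8.58 and 3.49 ± 0.625 TPM in the same order (interaction -2.46 ± 0.39, adjusted p = 0.0031). In both genes the h2a.z libraries were above all 9 others, and no combined library exceeded the highest h3.3kd library. The ethylene and jasmonate defence branch had 5 of 7 (PDF1.2A adjusted p = 4.6e-06). Aliphatic glucosinolate synthesis had 6 of 19 (BCAT4 -3.27 ± 0.43, adjusted p = 0.00084). Glucosinolate breakdown had 4 of 14 lower and 1 higher (ESM1 -2.34 ± 0.22, adjusted p = 5.1e-05). The filter let in 4 of the 25 jasmonate genes, 4 of the 7, 2 of the 19 and 1 of the 14 through 1 genotype alone. PDF1.2A and ESM1 entered through h2a.z alone. As both genotypes of the pair enter the interaction, the filter favoured a call for such genes, and their interactions are descriptions. PRX52, a peroxidase, changed in opposite directions, from 0.0358 ± 0.0621 TPM in Col to 1.66 ± 0.692 in h3.3kd and from 14.1 ± 8.31 in h2a.z to 1.2 ± 0.785 in the combined line (interaction -4.03 ± 0.51, adjusted p = 0.00053).

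**Figure D3:**
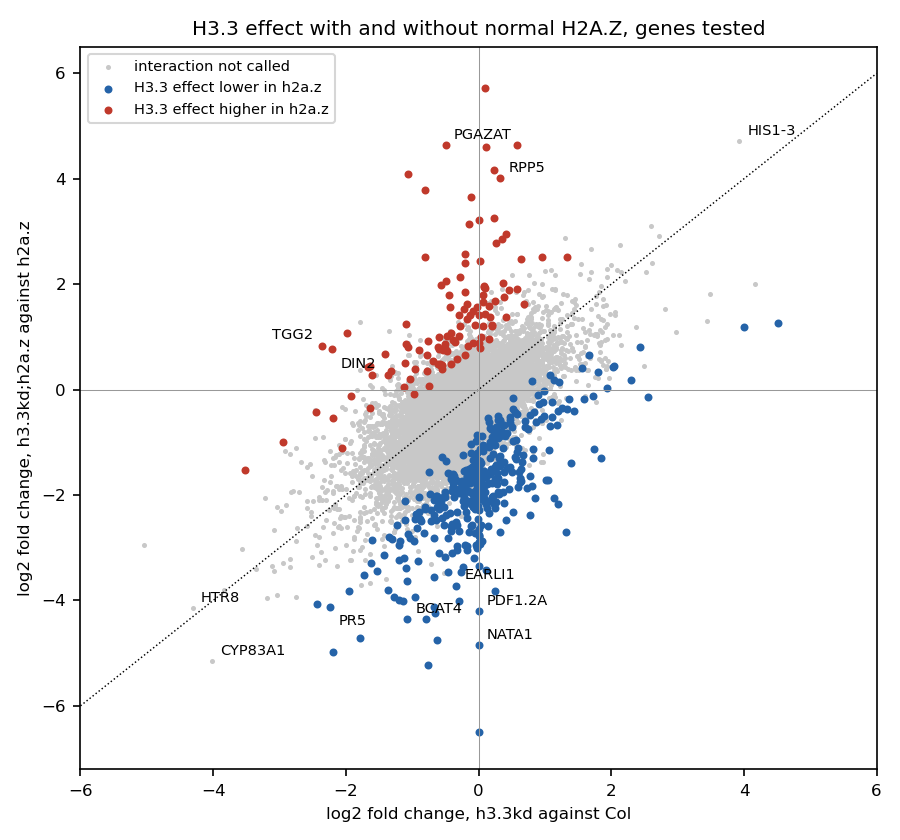
Each point is 1 of the 19334 tested genes; the horizontal axis is the log2 fold change of h3.3kd against Col and the vertical axis that of h3.3kd;h2a.z against h2a.z, both on the log2(TPM + 1) scale. Coloured points have a called interaction (374 lower in blue, 112 higher in red), and the dotted line marks equal effects. Many blue points lie near 0 on the horizontal axis and far below 0 on the vertical one. PDF1.2A and NATA1, among these, are listed at 0 in every library outside h2a.z and passed the filter through h2a.z alone. Their places in the plot therefore had to be of this kind and are descriptions.

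Genes with a higher H3.3 effect in the h2a.z background included 87 of the 112 that were called higher in the combined line and 38 that were called lower in h3.3kd against Col. The 112 became 68 to 71 without h2a.z 2, combined 1 or combined 3, and 194 without h3.3kd 2. RPP5 (interaction 3.68 ± 0.31, adjusted p = 1.6e-05), PGAZAT (5.14 ± 0.42, adjusted p = 1.4e-05), SNC1 (1.90 ± 0.37, adjusted p = 0.012), HSP90.2 (1.60 ± 0.24, adjusted p = 0.0024) and CER1 (1.83 ± 0.27, adjusted p = 0.002) rose in the h2a.z background. In h3.3kd against Col their log2 fold changes were 0.33, -0.50, 0.07, 0.07 and 0.65 in that order, of which CER1 alone was called (adjusted p = 0.031). TGG2, a myrosinase, fell from 30.1 ± 9.30 TPM in Col to 5.01 ± 1.52 in h3.3kd (-2.36 ± 0.24, adjusted p = 2.7e-05), whereas in the h2a.z background it went from 4.68 ± 0.191 to 9.25 ± 2.04 (interaction 3.19 ± 0.34, adjusted p = 0.00012). DIN2, a glucosidase of sugar starvation, fell from 22.3 ± 8.19 TPM in Col to 3.90 ± 0.985 in h3.3kd (-2.21 ± 0.23, adjusted p = 2.9e-05), and stood at 13.0 ± 1.05 and 22.8 ± 2.26 with h2a.z (interaction 2.98 ± 0.32, adjusted p = 0.00013). The rises of TGG2 and DIN2 in the combined line were small (log2 change 0.83 ± 0.24, adjusted p = 0.019, and log2 change 0.77 ± 0.23, adjusted p = 0.022), and each call ended when single libraries were left out: for TGG2 without h2a.z 1 (0.059), h2a.z 3 (0.053), combined 1 (0.092) or combined 2 (0.066), and for DIN2 without h2a.z 2 (0.056), h2a.z 3 (0.081), combined 1 (0.066) or combined 3 (0.085). Over all alternatives these adjusted p ran from 0.00057 to 0.092 and from 0.00085 to 0.085. Their interaction calls held under every alternative run.

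Some transcripts were nearly absent in 1 genotype of the pair, here a mean of 5 TPM or more in one and a mean more than 16-fold lower in the other, with no test. Of 19 that were low in h2a.z, 6 are listed at a mean of 0 there, 14 had a Col level within 4-fold of the combined level, and 17 an h3.3kd level within 4-fold of it. Most of the 19 were thus low in the h2a.z libraries and at a like level in the other genotypes. For these an H3.3 effect and another difference between the lines cannot be told apart, since alleles and lines are not given. AT4G19500 read 0, 0.552 and 0.276 TPM in h2a.z, 65.5, 68.6 and 62.5 in the combined line and 53.6, 55.5 and 60.5 in Col, and its neighbour AT4G19510, annotated as a TIR-NBS-LRR resistance protein, 0.423, 0.579 and 0.554, 40.0, 37.4 and 33.8 and 29.5, 28.9 and 34.3. These were the only members of the 19 within 5 gene places of each other. AT1G29090, annotated as a cysteine proteinase, read 1.52, 1.22 and 0.749 TPM in h2a.z and 43.7, 33 and 30.8 in the combined line. PAI3, an enzyme of tryptophan synthesis, is listed at 0 in h2a.z and read 5.97, 7.51 and 5.29 TPM in the combined line, with Col at 8.72, 4.09 and 6.10. MRD1 differed in that it is listed at 0 in Col as well as in h2a.z, and read 2.57, 4.55 and 3.23 TPM in h3.3kd and 5.70, 5.56 and 5.96 in the combined line. Neighbours on opposite strands cannot be told apart where genes overlap, since the sources used here do not give the strandedness of the libraries.

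**Figure D4:**
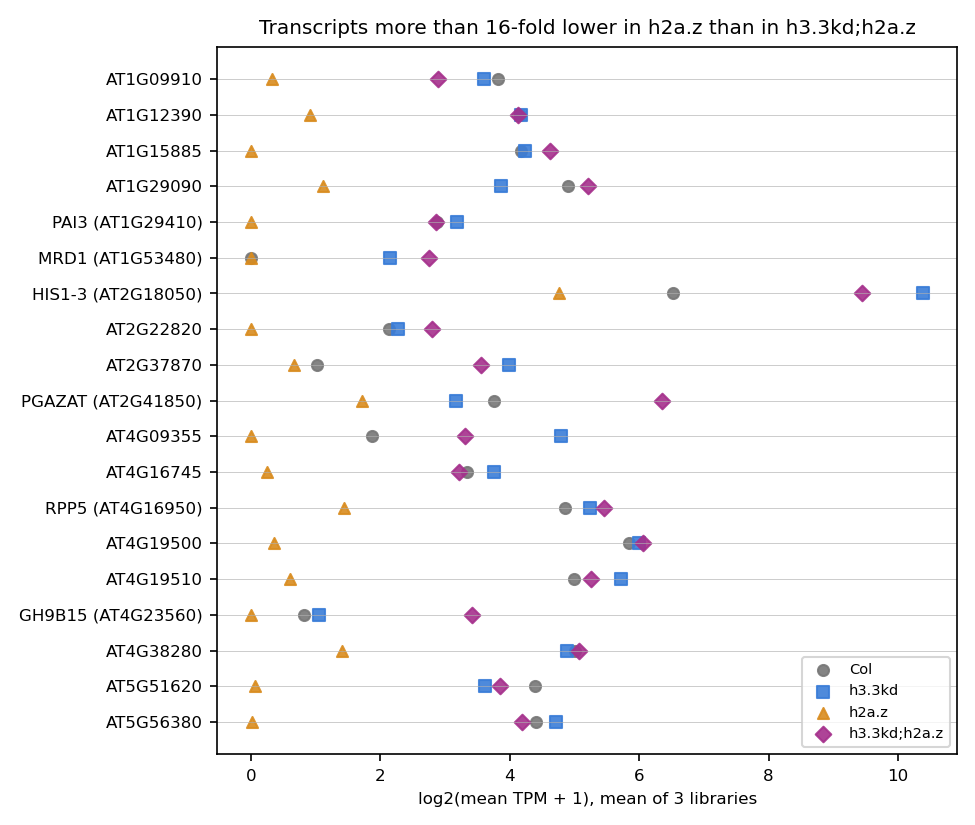
Rows are the 19 transcripts with a mean of 5 TPM or more in h3.3kd;h2a.z and a mean more than 16-fold lower in h2a.z; the horizontal axis is log2(mean TPM + 1), with 1 symbol per genotype for the mean of its 3 libraries. The h2a.z triangles lie far to the left in every row, and for 14 of the 19 the Col circle is within 4-fold of the h3.3kd;h2a.z diamond.

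In the other direction 69 transcripts were low in the combined line, 13 of them listed at a mean of 0. For 47 of the 69 Col too was more than 4-fold below h2a.z, and for 57 h3.3kd was more than 16-fold below it, so at this fold most were well above Col and h3.3kd in h2a.z. With more than 8-fold as the rule, Col was more than 4-fold below h2a.z for 81 of 170 and within 4-fold of it for 88. AT3G28320, an uncharacterised gene, read 109.5, 76.9 and 82.7 TPM in h2a.z and is listed at 0 in the other 9 libraries. AT5G42530 read 271, 225 and 205 TPM in h2a.z, 3.15, 7.16 and 6.27 in the combined line and 1.81, 4.31 and 1.25 in Col (log2 change -5.22 ± 0.48, adjusted p = 3.9e-06). AT4G22212, a defensin-like gene, read 147, 215 and 188 and 9.89, 11.2 and 11.8 TPM, with Col at 49.1, 18.3 and 26.8. AT3G05727 was an exception in order, since Col was highest (528, 354 and 215 TPM), h2a.z intermediate (119, 82.2 and 77.5) and the combined line low (8.62, 4.46 and 2.99). ESM1, described above, met the rule with the same order. HTR8 also met the rule. In 6 instances a pair of these 69 lay within 5 gene places of each other, PDF1.2A beside PDF1.2C among them. Another 3 of the largest falls without a list were of this kind: MES18, a methyl esterase (45.9, 69.4 and 59.2 against 0.780, 1.76 and 0.325 TPM, log2 change -4.97 ± 0.26, adjusted p = 3.3e-08), AACT1, an acyltransferase (34.3, 24.3 and 25.9 against 0.353, 1.95 and 0.137 TPM, log2 change -4.12 ± 0.31, adjusted p = 5.6e-07), and GSTF14, a glutathione transferase (20.4, 25.7 and 27.9 against 0, 0.917 and 1.15 TPM, log2 change -3.99 ± 0.29, adjusted p = 5.1e-07). DIN11, a dioxygenase of the dark starvation list, fell from 42.5, 32.5 and 61.3 TPM to 2.17, 7.58 and 4.33 (log2 change -3.10 ± 0.32, adjusted p = 1e-05), with Col at 0.795 ± 0.0386.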

How the data were processed

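Bulk RNA of 12 libraries was available as TPM (transcripts per 1000000) for 23387 genes, in a table the authors deposited; its columns were mapped to genotypes by name, 0 columns had no sample and 0 pairs of columns were identical. Per the submitters' processing notes, fastp 0.20.1, HISAT2, HTSeq 0.11.2 and DESeq2 1.26.0 were used with TAIR10, without a stated role or order; counting mode, strandedness and gene lengths are not given there. The deposited TPM sum to 1000000 in each library and keep no depth, so no counting interval is given. Labels do not say that replicates came from separate batches of plants, so p-values measure the spread between these libraries.

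Genes were kept where 3 or more of the pair's 6 libraries reached 1 TPM. log2(TPM + 1) was fitted in limma 3.58.1 (R 4.3.3) with 1 mean for each of the 4 genotypes over all 12 libraries, moderated with a mean trend, and p-values were adjusted by Benjamini and Hochberg over all genes kept; a call is an adjusted p under 0.05. The interaction subtracts the log2 fold change of h3.3kd against Col from that of the pair. The test was tried on simulated data of 19334 genes, with 100 changed 2-fold and 100 changed 4-fold in the combined line alone. For the pair it recovered 66% and 97% of them, and for the interaction 35% and 83%. Of the unchanged genes 9 and 4 were called. Far fewer genes were changed there than were called in the data. Summaries and figures used Python 3.11.15, numpy 2.4.6, pandas 2.3.3 and matplotlib 3.10.9. The 32 gene lists hold 578 genes, of which 572 are in the table; the comparison and lists were chosen with earlier results of these data known. Genes named were the targeted histones, the 12 largest called changes each way with a symbol, a mean of 5 TPM or more and no overlap, up to 4 called members of each list, the 6 largest interactions each way, 6 near-absent transcripts each way, and PIF4, YUC8, IAA19, IAA29 and HSP70-4; further list members are named with their values. Identifiers were matched to RefSeq TAIR10.1 (23224 matched, 9740 with a symbol), which also gave the windows of 250 bases upstream. Alternatives were other pseudocounts (0.5 and 0.1), filters and scalings, array weights, robust moderation, the replicate number as a block, the 6 libraries alone, and leaving out each library; the fit of the 6 libraries alone with the block was added after the data were seen.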

Additional observations from a re-analysis of the deposited data

Results flagged for a closer look

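For 52 genes named by the rule the H3.3 effect with h2a.z differed from that without it by the interaction test of limma (adjusted p under 0.05); each value below is the first effect minus the second, on the log2(TPM + 1) scale, with 3 libraries per genotype. For genes listed at 0 in a genotype the value rests on the pseudocount and is no bound. Genes that passed the filter through 1 genotype alone, PDF1.2A among them, were favoured for a call, and their values are descriptions. The call was lost under at least 1 alternative for 24 of the 52 and held under every alternative run for the other 28.

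Jasmonate, ethylene and immune genes had lower effects with h2a.z: NATA1 (-4.85), PDF1.2A (-4.21), PDF1.2C (-3.35), PDF1.2B (-2.65), TAT3 (-3.53), ORA59 (-3.12), AZI3 (-4.08), EARLI1 (-3.39), PCC1 (-1.98), PR5 (-1.88), AOC2 (-1.71) and AOC3 (-1.67). The list members JAZ1 (-2.31) and AOC1 (-2.46), outside the 52, were called too. Glucosinolate genes were lower by -3.27 for BCAT4, -2.88 for IPMI1, -2.43 for MAM3, -1.65 for IMD1, -2.34 for ESM1, -1.56 for JAL33, -1.45 for BGLU21 and -0.83 for SOT16. Nutrient and stress genes followed with IRT1 (-1.91), FRO2 (-1.78), APR1 (-1.37), GDPD1 (-1.23), LTI30 (-1.26), BIP3 (-1.92) and DIN11 (-2.70). Outside the lists the values were -6.49 for AT3G28320, -4.45 for AT5G42530, -4.03 for PRX52, -3.45 for AACT1, -2.93 for AT2G25510, -2.79 for GSTF14, -2.77 for MES18 and -2.65 for AT4G22212.

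Resistance genes had higher effects with h2a.z: AT4G19500 (5.63), AT4G19510 (4.06), RPP5 (3.68), AT4G16960 (2.05) and SNC1 (1.90). AT4G19500, AT4G19510 and RPP5 were low in h2a.z and at the level of Col or above in the combined line. For such genes an H3.3 effect and another difference between the lines cannot be told apart. The other higher values were 5.15 for AT1G29090, 5.14 for PGAZAT, 3.19 for TGG2, 3.01 for GH9B15, 2.98 for DIN2, 2.55 for TTN10, 2.49 for PAI3, 1.83 for CER1, 1.71 for HTA9, 1.60 for HSP90.2, 1.55 for CEP1 and 1.18 for THI2.2. Calls that ended under the most alternatives were those of AOC3 (14 alternatives), EARLI1, IMD1 and IRT1 (13 each), APR1 (12), FRO2 (11) and SOT16 (10), and the causes were not tested.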

How the results depend on the processing

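Of 3407 values under the alternatives, for the 142 genes that the rule selects, 3339 kept direction and side of the threshold, 67 lost the call, 1 gained it and 0 reversed; 19 of the 140 called genes lost the call somewhere, most of them genes not described here, while MYC4, HTR3, HTA5, HTA6 and HTA13, named as further list members, are outside this tally. Counts moved more. The 1054 rises became 277 with a 2-fold minimum, 1867 with median-ratio rescaling, 2569 with quantile normalization, 2518 with array weights, 2131 with the 6 libraries alone and 1947 there with the replicate block, and 628 to 1508 when single libraries were left out. The 3803 falls became 2021, 2485 and 6322 with the 2-fold minimum, quantile normalization and array weights, and 2836 to 4696 without single libraries. Interactions numbered 173 (quantile) and 454 (array weights) against 112 higher, and 188 (pseudocount 0.1) and 1162 (array weights) against 374 lower, with ranges of 68 to 194 and 229 to 557 without single libraries. The largest of these counts came without h3.3kd 2 (1508, 4696 and 194) or h3.3kd 1 (557). A 2-fold minimum shortens the lists by construction. Leaving out a Col or h3.3kd library keeps the log2 fold changes of the pair as they are and alters only the estimate of their spread. For the other settings the cause was not tested. Transcripts low in h2a.z numbered 12 at more than 32-fold and 12 at a mean of 10 TPM or more, against 19; those low in the combined line 170 at more than 8-fold, 42 at 32-fold and 44 at 10 TPM, against 69. List counts stayed within 1.5 times in 1368 of 1536 values.

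Same-numbered libraries of the pair did not deviate together (correlations of -0.056 to 0.037), and the main model did not pair them. Such values cannot show whether they were grown or prepared together, which the labels do not say. With the replicate number as a block in the model of all genotypes there were 1102 rises, 3838 falls, and 121 and 380 interactions. TPM keeps no read depth, so the counting error of low genes is unknown, and 3 libraries a genotype limit the precision.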
